A study of Mus musculus with 18 samples.

Results

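The Bcl2 family of proteins decides at the mitochondrial surface whether a cell lives or dies, and 10 of its genes are described here in MEL cells, a mouse erythroleukemia line blocked at an early erythroid stage. They are the survival genes Bcl2, Bcl2l1 and Mcl1, the effector genes Bax and Bak1, and the BH3-only genes Bcl2l11, Bid, Bad, Bbc3 and Bik. The members were found by symbol in an RNA-seq table of 26599 genes, where each of the 10 had a single entry. Cells kept for 5 days in 2% dimethyl sulfoxide (DMSO), which drives them to make hemoglobin, are called day 5, and untreated cells are called day 0. No untreated day 5 cells were among the samples, so DMSO and time in culture cannot be told apart. Each day had 2 biological replicates per the labels, from the same line with no other allele or agent named, and whether the replicates were separate cultures is not spelled out. The p-values therefore measure the spread between these libraries. Per the labels, at least 80 to 90% of treated cells were positive for hemoglobin and at least 90% of cells were viable. The RNA values are FPKM (fragment counts scaled by transcript length and by library size), so levels of different genes can be set side by side.

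In healthy cells the survival proteins hold Bax and Bak in check. BH3-only proteins carry death signals: they occupy the groove of the survival proteins, and some of them also switch on Bax and Bak directly. Activated Bax and Bak open the outer mitochondrial membrane, cytochrome c leaves, and caspases are switched on. In the erythroid lineage, Bcl-xL, the long product of Bcl2l1, is known for keeping late, hemoglobin-making precursors alive, while Mcl-1 is known for its role in earlier stages.

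The 4 RNA libraries summed to between 758150 and 787494 FPKM, and their read depth is unknown, since FPKM keep no counts. The erythroid identity of the cells was checked with 10 marker genes found in the table, whose summed level was 32974 and 31187 FPKM on day 5 and 1851 and 1187 FPKM on day 0. Of 9 myeloid markers found, 7 were at 0, or (Itgam) negligibly above it, in every library, Csf1r, Cd14, Lyz2, Mpo and Elane among them, and the sum was 1.01 and 2.09 FPKM on day 5 and 6.56 and 2.53 FPKM on day 0. Lymphoid markers summed to at most 0.474 FPKM on day 5 and 0.287 FPKM on day 0, with 5 of 8 at 0 in every library, Cd3e and Ms4a1 among them. Fibroblast and epithelial markers summed to at most 1.55 FPKM on day 5 and 2.77 FPKM on day 0, with 3 of 7 at 0 in every library. Mast cell markers summed to 0.382 and 0.376 FPKM on day 5 and 10.2 and 6.48 FPKM on day 0, with Cpa3, Mcpt8 and Tpsb2 at 0. This sum was Hdc alone, but for Kit at 0.345 FPKM in day 0 replicate 2. The megakaryocyte marker sum was higher on day 5, at 138 and 112 FPKM, against 57.4 and 18.2 FPKM on day 0. Most of the day 5 sum was Itga2b, at 104 and 92.8 FPKM on day 5 and 15.4 and 7.32 FPKM on day 0. Pf4 overlapped between the days, with its highest value, 41.4 FPKM, in day 0 replicate 1. Gp9 and Gp1ba were low, at most 3.77 FPKM, and higher in both day 5 libraries. Of the 5 markers 1, Ppbp, was at 0 in every library. The part of these markers in the results below was not tested.

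By the test used, 3 members rose and 0 fell. The test was limma on log2(FPKM + 1), over the 10736 genes that reached 1 FPKM in 2 or more libraries. The risers were Bcl2l11 (Bim), Bcl2l1 (Bcl-xL) and Bid, so the RNA of a survival gene and of 2 death-signal genes went up together. All 10 members passed the filter on low values, and each reached 1 FPKM in at least 1 library of each day. Of all tested genes, 10.7% rose and 7.81% fell at an adjusted p under 0.05, and 3 of 10 members rose while 0 of 10 fell. At an unadjusted p under 0.05, 7 members differed, of which 6 were higher on day 5 and 1 was lower. Over all tested genes 4148 of 10736 differed at that level, 2472 of them higher. Over the members the log2 fold changes had a median of 0.95, against 0.15 over all tested genes, a median that quantile normalization moved to 0.01. Relative to 0.15, the log2 fold change was 2.29 for Bcl2l11, 1.39 for Bcl2l1, 1.04 for Bid and -0.68 for Bax. The day 5 values did not overlap the day 0 values in any of the 10 members, 9 being above and 1 (Bax) below, whereas 40.2% of all tested genes lay above and 27% below. In bulk RNA, fewer cells that express a gene and less RNA per cell cannot be told apart.

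**Figure D1:**
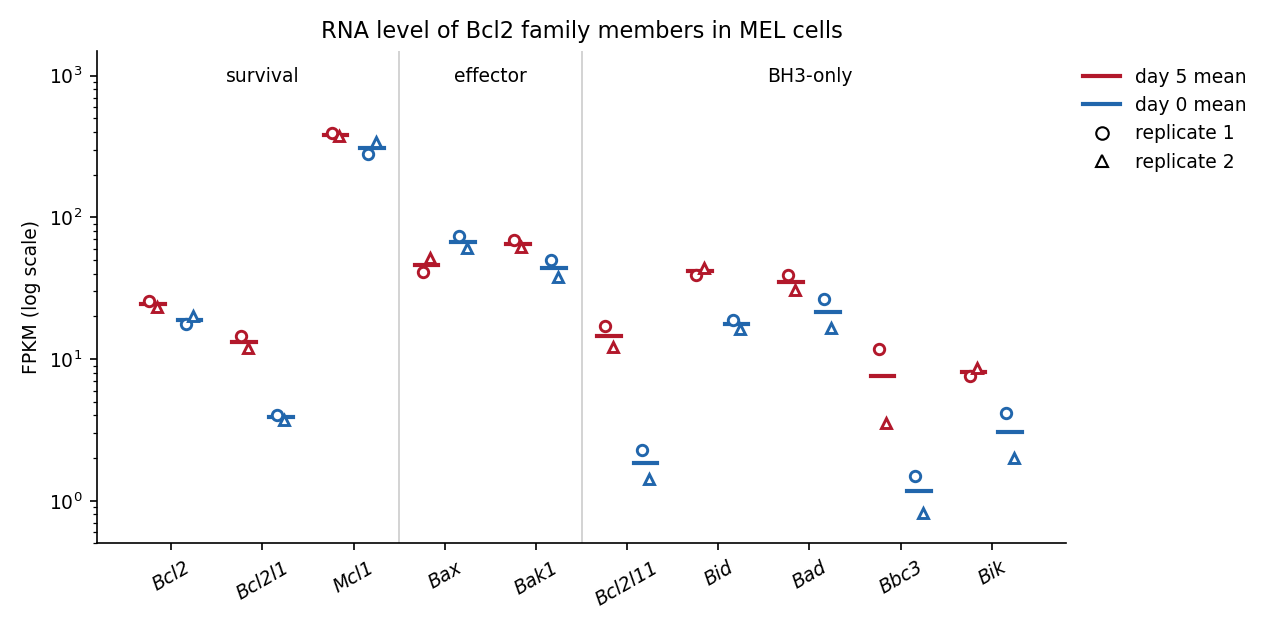
FPKM of each member on a log axis, day 5 in red left of day 0 in blue. Circles are replicate 1, triangles replicate 2 and lines the mean of both. Mcl1 stands above every other member on both days, and Bcl2l11 shows the widest gap between days among genes that passed the test, at 14.6 FPKM on day 5 and 1.85 FPKM on day 0.

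Among the survival genes, Bcl2l1 moved and Mcl1 and Bcl2 did not pass. Bcl2l1, which encodes Bcl-xL, had 14.5 and 12.0 FPKM on day 5 and 4.05 and 3.71 FPKM on day 0. Both day 5 libraries were well above both day 0 libraries, and replicates lay close together on each day. The mean was 13.3 ± 1.76 FPKM on day 5 and 3.88 ± 0.241 FPKM on day 0 (SD, n = 2 each), 3.41-fold higher (log2 fold change 1.54 ± 0.26 SE, limma adjusted p = 0.0235). Of all tested genes, 94.4% had a lower log2 fold change. Of 3 RefSeq starts of Bcl2l1, 1 has the GATA core AGATAA within the promoter window (250 bases before to 50 after the start). This window, on chr2:152828440-152828739, minus strand, in build GRCm38.p6, is shown because the gene rose and because it holds the core, in capitals.
Bcl2l1 promoter: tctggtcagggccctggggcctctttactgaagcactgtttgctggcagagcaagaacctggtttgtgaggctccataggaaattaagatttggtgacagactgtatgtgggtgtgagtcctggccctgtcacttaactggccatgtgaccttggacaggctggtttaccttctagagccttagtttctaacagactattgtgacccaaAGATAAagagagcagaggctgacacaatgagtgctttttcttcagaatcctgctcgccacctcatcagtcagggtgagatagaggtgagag
The capitals are the letters AGATAA, a form of the core bound by GATA factors and the only form searched, beginning 41 bases before the start. Of 32851 RefSeq promoter windows of 300 bases, 11.2% hold this motif on either strand. That share is for a single window, while every window of the gene was searched. Gata1, the main GATA factor of red cell precursors, had 359 and 407 FPKM on day 5 and 279 and 209 FPKM on day 0, and did not pass (log2 fold change 0.66, limma adjusted p = 0.076), but passed after quantile normalization (0.92, 0.0412). Which start MEL cells use was not measured.

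Mcl1, which encodes a short-lived survival protein, was by far the most abundant member. It had 394 and 374 FPKM on day 5 and 280 and 341 FPKM on day 0. The days did not overlap, but the day 0 libraries differed from each other more than the nearer libraries of the 2 days. Its mean was 384 ± 14.1 FPKM on day 5 and 311 ± 43.7 FPKM on day 0 (log2 fold change 0.31, 95% interval -0.13 to 0.76, limma adjusted p = 0.247). After quantile normalization its log2 fold change was 0.61 (limma adjusted p = 0.0713). Bcl2, the founding survival gene of the family, had 25.6 and 23.2 FPKM on day 5 and 17.5 and 20.1 FPKM on day 0. That is a narrow gap of the same direction (log2 fold change 0.36, 95% interval -0.16 to 0.88, limma adjusted p = 0.253), and 0.19 after quantile normalization (adjusted p = 0.559).

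Mcl1 made up 90.8% and 91.4% of the summed FPKM of the 3 survival genes on day 5 and 92.8% and 93.5% on day 0. The share of Bcl2l1 was 3.34% and 2.93% on day 5, against 1.35% and 1.02% on day 0. Relative to Bcl2, Bcl2l1 stood at a ratio of 0.567 and 0.517 on day 5 and 0.231 and 0.185 on day 0, so it remained the least abundant of the 3 in every library. An exact two-sided permutation test of 2 libraries against 2 gave p = 0.333 for this ratio, the smallest that the design allows.

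The effectors were abundant and took opposite directions, though neither passed. Bax encodes the effector that moves from the cytosol to mitochondria when activated. It had 41.3 and 51.6 FPKM on day 5 and 74.1 and 60.7 FPKM on day 0. Both day 5 libraries were the lower ones (log2 fold change -0.53, 95% interval -1.05 to -0.0037, limma adjusted p = 0.128). Bak1 encodes the effector that sits in the outer mitochondrial membrane already in healthy cells. It had 68.9 and 61.8 FPKM on day 5 and 50.4 and 38.1 FPKM on day 0. Here both day 5 libraries were the higher ones (log2 fold change 0.56, 95% interval 0.04 to 1.09, limma adjusted p = 0.111). These intervals hold for each gene alone and are not corrected for the number of genes.

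In these libraries the order of the effectors by FPKM differed between the days, with too few libraries for the permutation test below to decide. Bax stood to Bak1 at a ratio of 0.599 and 0.836 in the day 5 libraries, against 1.47 and 1.59 in the day 0 libraries, so Bak1 was the higher of the pair in both day 5 libraries and Bax in both day 0 libraries. Its mean was 0.717 ± 0.167 on day 5 and 1.53 ± 0.0843 on day 0, 0.468 times as high (exact two-sided permutation p = 0.333, the smallest possible). Their summed level overlapped between the days, at 110 and 113 FPKM on day 5 and 124 and 98.8 FPKM on day 0.

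**Figure D2:**
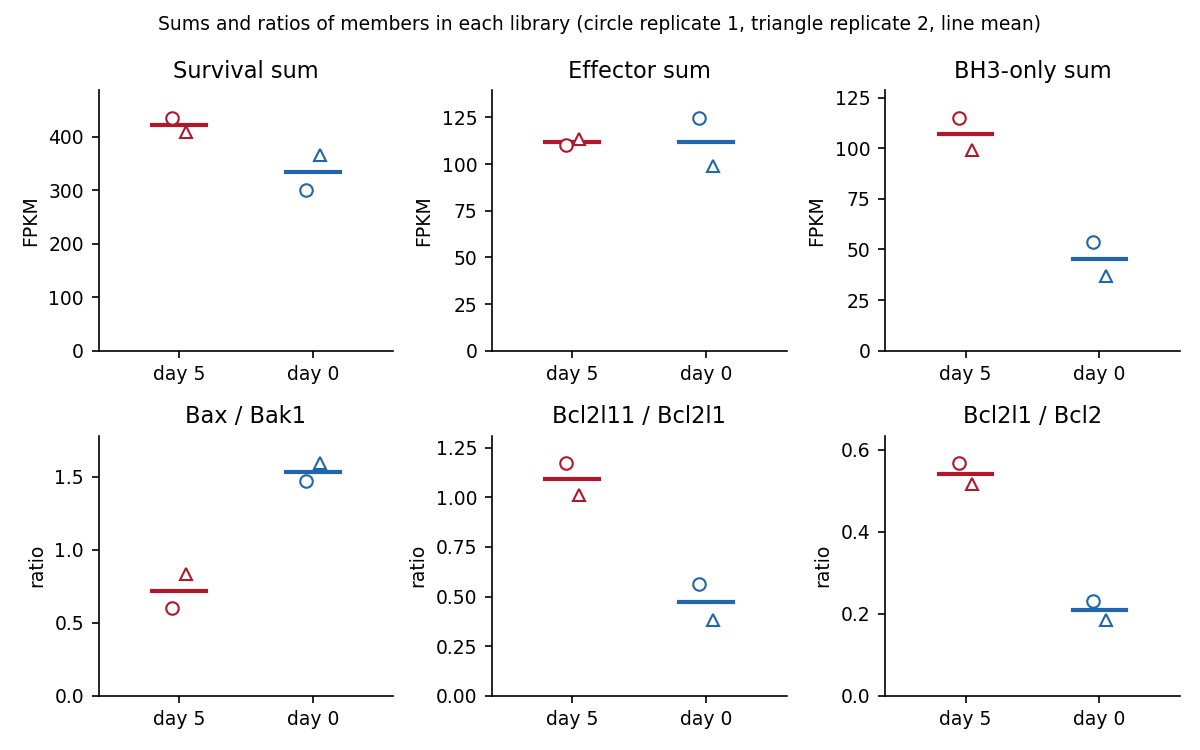
Summed FPKM of the survival, effector and BH3-only members (upper row) and ratios of single members (lower row) in each library, day 5 left of day 0. Circles are replicate 1, triangles replicate 2, lines the mean, and every axis starts at 0. The effector sum overlaps between the days, while the Bax to Bak1 ratio is under 1 in both day 5 libraries and above 1 in both day 0 libraries.

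All 5 BH3-only genes were higher in both day 5 libraries, and 2 of the 5 passed. Of all tested genes, 40.2% were higher in both day 5 libraries and 10.7% passed as higher. Bcl2l11 encodes Bim, a BH3-only protein that binds every major survival protein. It had 17.0 and 12.1 FPKM on day 5 and 2.29 and 1.41 FPKM on day 0. The lowest day 5 library was thus several times above the highest day 0 library. Its mean was 14.6 ± 3.43 FPKM on day 5 and 1.85 ± 0.62 FPKM on day 0, 7.87-fold higher (log2 fold change 2.45 ± 0.33 SE, limma adjusted p = 0.0148). A lower log2 fold change was found in 98.7% of tested genes. The window around the upstream of 2 RefSeq starts of Bcl2l11, chr2:128125788-128126087, plus strand, in GRCm38.p6, is shown because this gene rose most and because the window holds a forkhead element, in capitals.
Bcl2l11 promoter: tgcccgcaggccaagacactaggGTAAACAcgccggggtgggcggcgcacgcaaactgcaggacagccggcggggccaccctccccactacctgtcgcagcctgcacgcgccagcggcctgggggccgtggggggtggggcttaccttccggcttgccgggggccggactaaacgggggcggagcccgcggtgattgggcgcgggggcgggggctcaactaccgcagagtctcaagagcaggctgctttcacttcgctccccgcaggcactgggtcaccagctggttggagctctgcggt
The capitals are GTAAACA, a form of the element bound by FOXO factors, beginning 227 bases before the start. It is found on either strand in 3.65% of all windows of that length, again a share for a single window. Foxo3, a forkhead factor known to switch on Bcl2l11 in other blood cells, had 32.3 and 34.6 FPKM on day 5 and 12.6 and 13.2 FPKM on day 0. It rose as well (log2 fold change 1.30, limma adjusted p = 0.0192). Foxo1, the other FOXO gene listed, was higher in both day 5 libraries but did not pass (0.73, limma adjusted p = 0.12). Foxo3, Foxo1 and Gata1 were chosen for mention after their values were seen. Whether any of them acts on Bcl2l11 or Bcl2l1 was not tested.

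Bid links death receptors to mitochondria once caspase-8 has cut it. It had 39.2 and 43.9 FPKM on day 5 and 18.9 and 16.4 FPKM on day 0. The days were far apart and the replicates close. The mean was 41.6 ± 3.34 FPKM on day 5 and 17.6 ± 1.75 FPKM on day 0, 2.36-fold higher (log2 fold change 1.19 ± 0.20 SE, limma adjusted p = 0.023). Its single RefSeq promoter window, chr6:120916775-120917074, minus strand, in GRCm38.p6, is given for comparison with those of Bcl2l1 and Bcl2l11.
Bid promoter: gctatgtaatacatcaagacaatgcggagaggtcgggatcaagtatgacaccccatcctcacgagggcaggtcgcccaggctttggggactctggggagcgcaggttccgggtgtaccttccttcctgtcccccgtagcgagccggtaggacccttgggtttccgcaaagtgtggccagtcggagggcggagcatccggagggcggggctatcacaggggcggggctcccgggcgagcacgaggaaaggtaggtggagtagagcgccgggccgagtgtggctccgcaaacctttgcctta
This window holds none of the 4 motifs in the exact letters searched, and so has no capitals. Other forms of these elements were not searched in any window, so a window without capitals may still hold them. Besides the GATA letters AGATAA and the FOXO letters GTAAACA, the search took in the STAT letters TTCNNNGAA and the PU.1 letters GAGGAAGT. Each was read on both strands, and no matches overlapped. The STAT and PU.1 letters occur in 8.3% and 3.2% of all windows. Windows were found for 9 members, all but Bik, 15 in all. Beyond the matches shown, the FOXO letters occur in a Bbc3 window and the PU.1 letters in a Bak1 and a Bad window, and none holds the STAT letters.

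Bad, whose protein is kept inactive by survival signals through phosphorylation, had 39.1 and 30.9 FPKM on day 5 and 26.7 and 16.4 FPKM on day 0. The nearest libraries of the 2 days were closer to each other than the replicates of either day, and it did not pass (log2 fold change 0.70, 95% interval -0.04 to 1.44, limma adjusted p = 0.143). Bbc3, which encodes the p53 target Puma, had 11.7 and 3.52 FPKM on day 5 and 1.50 and 0.821 FPKM on day 0. The day 5 replicates were far apart, the lower one lying nearer to day 0 than to its own replicate (log2 fold change 1.83, 95% interval 0.41 to 3.24, limma adjusted p = 0.0752). It was 1.08 without day 5 replicate 1 and 2.58 without day 5 replicate 2. Bik encodes a BH3-only protein found largely at the endoplasmic reticulum. It had 7.65 and 8.62 FPKM on day 5 and 4.13 and 2.01 FPKM on day 0 (log2 fold change 1.21, 95% interval 0.31 to 2.12, limma adjusted p = 0.0697).

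Summed over the 5 BH3-only genes, the level was 115 and 99.1 FPKM on day 5, against 53.5 and 37.1 FPKM on day 0, which is 2.36 times as high by the means. Bid and Bad together made most of this sum on both days. Bcl2l11 supplied 14.8% and 12.3% of it on day 5 and 4.28% and 3.81% on day 0. The share of Bid overlapped between the days, and Bad supplied 34.1% and 31.2% on day 5, against 49.9% and 44.3% on day 0. The survival sum was 434 and 410 FPKM on day 5, against 301 and 365 FPKM on day 0. The BH3-only sum was therefore 0.264 and 0.242 of the survival sum on day 5 and 0.177 and 0.101 of it on day 0. Between the 2 risers of opposite role, the ratio of Bcl2l11 to Bcl2l1 was 1.17 and 1.01 on day 5, against 0.565 and 0.381 on day 0. The exact two-sided permutation p of this ratio was 0.333, the smallest possible. Sums and shares over the members are given as descriptions, with no test reported. RNA levels do not show how much protein was present.

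**Figure D3:**
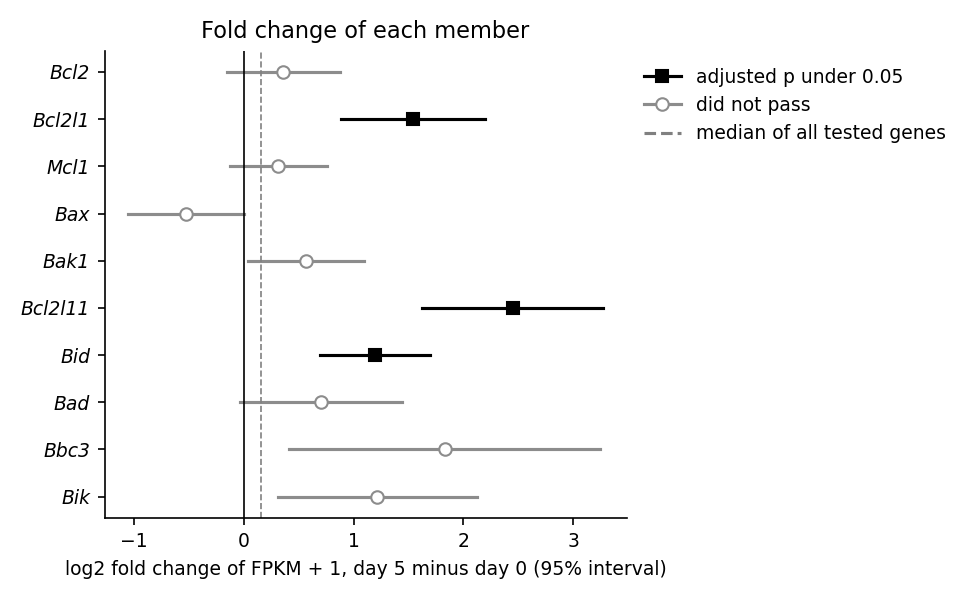
Log2 fold change of each member, day 5 minus day 0, on the log2(FPKM + 1) scale with 95% intervals for each gene alone. Filled squares passed an adjusted p of 0.05, open circles did not, and the dashed line is the median of all tested genes at 0.15. Bax is the member with a value below 0, and Bcl2l11, Bcl2l1 and Bid passed.

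The calls rest on both libraries of each day. With any single library left out, none of the members passed in limma, and the adjusted p was 0.0727 to 0.168 for Bcl2l11, 0.0839 to 0.177 for Bcl2l1 and 0.094 to 0.174 for Bid. At an unadjusted p under 0.05 there were 6 members when day 0 replicate 1 was dropped (3038 of all 10736 genes), 3 when day 0 replicate 2 was (2504 genes), 3 when day 5 replicate 1 was (3218 genes) and 5 when day 5 replicate 2 was (3440 genes). With no filter on low FPKM none passed either (adjusted p 0.0798 for Bcl2l11, 0.078 for Bcl2l1 and 0.0678 for Bid, and 3 members and 4025 of 15168 genes at an unadjusted p under 0.05).

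By level, the day 5 order was Mcl1, Bak1, Bax, Bid, Bad, Bcl2, Bcl2l11, Bcl2l1, Bik and Bbc3. Among neighbours in this order, the libraries of Bax and Bid, of Bcl2l11 and Bcl2l1, and of Bik and Bbc3 overlapped. On day 0 the order was Mcl1, Bax, Bak1, Bad, Bcl2, Bid, Bcl2l1, Bik, Bcl2l11 and Bbc3. There the libraries of Bad, Bcl2 and Bid overlapped, as did those of Bcl2l1 and Bik, of Bik and Bcl2l11, and of Bcl2l11 and Bbc3. The mean of Bcl2l11 exceeded that of 44.1% of tested genes on day 5 and of 10% on day 0, and that of Mcl1 exceeded 97.5% on day 5 and 96.3% on day 0.

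The genes whose 4 values lay nearest to those of Bcl2l11, by Euclidean distance over the 4 libraries on the log2(FPKM + 1) scale, were Appl2, Dstyk and Isg15, at distances of 0.41, 0.44 and 0.44. Appl2, an endosomal adaptor gene, had 17.3 and 13.7 FPKM on day 5 and 3.26 and 1.28 FPKM on day 0. With 4 libraries in 2 groups, a small distance says that 2 genes had like levels on each day and no more.

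Beyond the 10 members, the rest of the family was mostly at 0 or did not pass. Bcl2l2 (Bcl-w), the survival gene nearest in kind, had 12.8 and 13.8 FPKM on day 5 and 7.98 and 6.52 FPKM on day 0 (log2 fold change 0.80, limma adjusted p = 0.0763). The other 5 survival entries, Bcl2l10 and the near-identical Bcl2a1a, Bcl2a1b, Bcl2a1c and Bcl2a1d, were listed at 0 in all 4 libraries. The effector relative Bok was listed at 0 throughout, and the BH3-only gene Hrk negligibly above it. Bmf, a BH3-only gene, had 0.976 and 0.299 FPKM on day 5 and was listed at 0 in both day 0 libraries, and so was not tested. Bcl2l15 was too low to be tested as well.

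Of 9 tested entries of other death and BH3-only genes 0 rose and 1 fell, with a median log2 fold change of 0.15. Bnip3, whose protein carries a BH3-like stretch and marks mitochondria for autophagy, had 42.1 and 43.5 FPKM on day 5 and 182 and 120 FPKM on day 0 (limma adjusted p = 0.0154). Its relative Bnip3l, known for clearing mitochondria from reticulocytes, had 158 and 129 FPKM on day 5 and 103 and 90.4 FPKM on day 0 and did not pass (adjusted p = 0.0865). Pmaip1, which encodes the Mcl-1 antagonist Noxa, overlapped between the days, at 11.3 and 12.3 FPKM on day 5 and 11.9 and 17.0 FPKM on day 0. Bcl2l12, Bcl2l13, Bcl2l14 and Becn1 had adjusted p of 0.541 to 0.806 by limma. Moap1, a Bax-binding protein gene, had 2 entries, and neither passed. The more abundant entry had 14.7 and 14.7 FPKM on day 5 and 8.82 and 6.86 FPKM on day 0 (log2 fold change 0.84). The other entry was low, at 1.30 and 0.115 FPKM on day 5 and 3.55 and 1.74 FPKM on day 0 (-1.14). As the entries differ in direction, that of the gene is uncertain.

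Downstream of the family, no tested caspase or apoptosome gene passed, and 2 genes of the outer membrane and release factor list fell. Over all tested genes 10.7% rose and 7.81% fell. Beside these shares, the counts in each pathway list are given as descriptions, with no test. Of 7 tested genes of the apoptosome and caspase list 0 rose and 0 fell, with a median log2 fold change of 0.19. Of 12 genes of the outer membrane and of release factors, 0 rose and 2 fell, with a median of -0.23. Aifm1, which encodes apoptosis-inducing factor, also needed for respiratory complex assembly, had 26.7 and 32.6 FPKM on day 5 and 82.4 and 67.7 FPKM on day 0 (log2 fold change -1.31, limma adjusted p = 0.0201). Htra2, a mitochondrial protease gene, had 19.7 and 18.0 FPKM on day 5 and 45.1 and 36.2 FPKM on day 0 (-1.06, 0.0315). Both of these fell, with no overlap between the days.

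Of 7 caspase substrate and nuclease genes 0 rose and 2 fell, with a median of -0.24. They were Dnase2a, a lysosomal nuclease gene (log2 fold change -1.39, limma adjusted p = 0.0386), and Lmnb1, a nuclear lamina gene (-0.74, 0.0484). Of 8 tested inhibitor of apoptosis (IAP) genes 2 rose and 0 fell, with a median of 0.23. Xiap, the direct caspase inhibitor, had 22.4 and 20.9 FPKM on day 5 and 10.5 and 11.5 FPKM on day 0 (0.92, 0.0427). Birc2, which encodes the ubiquitin ligase cIAP1, had 44.1 and 46.8 FPKM on day 5 and 27.9 and 22.3 FPKM on day 0 (0.84, 0.0458). After quantile normalization Lmnb1 (adjusted p = 0.0819), Xiap (0.0874) and Birc2 (0.0558) did not pass. Lmnb1 and Birc2 also missed the threshold with a pseudocount of 0.1 (0.0535 and 0.0501) and with no variance trend (0.0835 and 0.0663), and Lmnb1 with globin genes removed (0.0507).

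Of 9 tested death receptor and adaptor genes 1 rose and 0 fell, with a median of 0.31. Ripk1, a kinase below the tumor necrosis factor receptor, had 19.9 and 24.4 FPKM on day 5 and 10.9 and 7.84 FPKM on day 0 (log2 fold change 1.17, limma adjusted p = 0.04), and 0.93 after quantile normalization (0.06). Fas and Fasl were listed at 0 in all 4 libraries. Of 21 tested genes whose proteins bind BCL2 proteins or set their stability 3 rose and 0 fell, with a median of 0.35. Usp9x, which encodes a deubiquitinase that stabilizes Mcl-1, had 207 and 220 FPKM on day 5 and 86.0 and 105 FPKM on day 0 (1.16, 0.0192). Tmbim6, the gene of Bax inhibitor-1, had 178 and 197 FPKM on day 5 and 84.3 and 81.8 FPKM on day 0 (1.16, 0.0154). By their means Usp9x rose 2.24-fold and Tmbim6 2.26-fold. Each of the 18 called genes of the pathway lists lost its call with any single library left out (limma adjusted p 0.0755 to 0.211) and with no filter on low FPKM (0.0517 to 0.135).

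**Figure D4:**
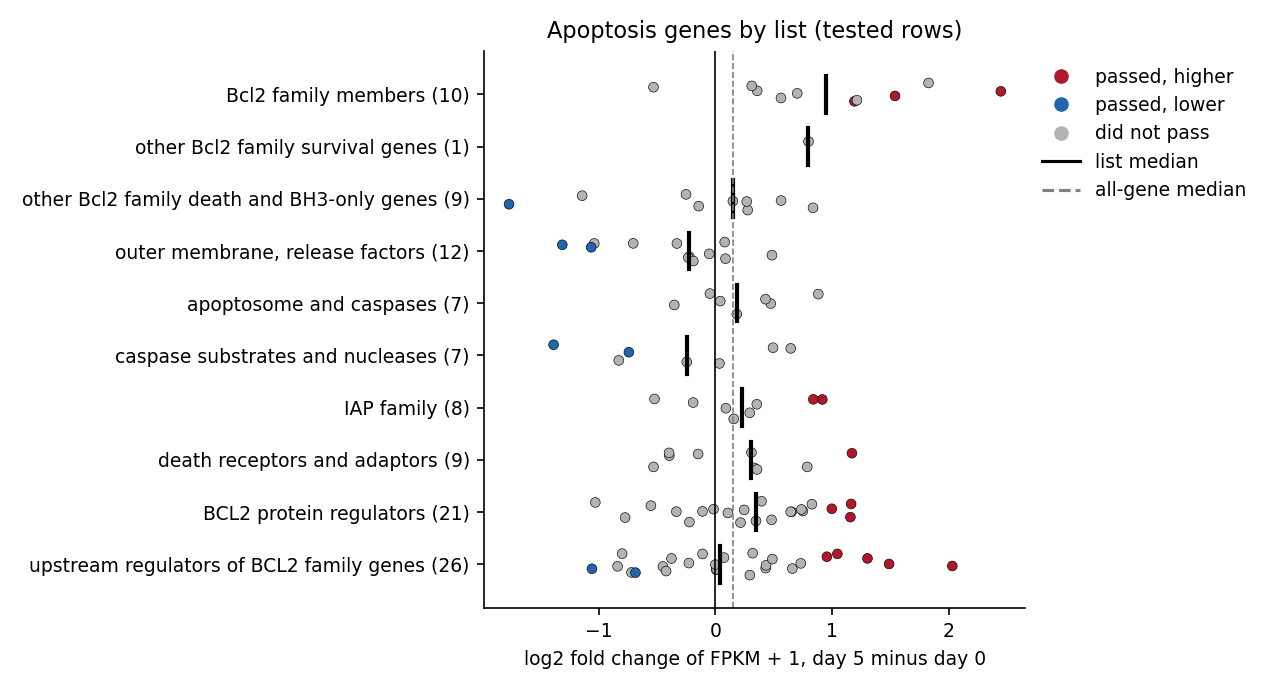
Log2 fold change, day 5 minus day 0, of every tested entry in the members and 9 lists of apoptosis genes, with the number of entries in brackets. Red points passed and were higher on day 5, blue points passed and were lower, grey points did not pass, black ticks are list medians and the dashed line is the median of all tested genes. The members have the highest median, 0.95, of the 10 sets shown, which is a description only. Members and lists were chosen with earlier results of these data known.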

How the data were processed

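RNA-seq libraries of MEL cells (2 per day) were stranded per the labels. The authors computed and deposited FPKM per gene as 1 table, and the values are used as deposited. The submitters' processing notes name Bowtie and mm9. How FPKM were computed and on which annotation were not given in the sources used here. FPKM hold no counts, so depth is unknown and no counting interval is given.

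A gene was tested if it reached 1 FPKM in 2 or more libraries, which left 10736 of 26599. The test used log2(FPKM + 1), a scale that understates the change of low genes. Day 5 and day 0 were compared by a two-sided test in limma 3.58.1 (R 4.3.3), using eBayes with a mean-variance trend and Benjamini-Hochberg adjustment over all tested genes and a threshold of 0.05. The script was tested on simulated data. It recovered 24 of 100 genes with an absolute log2 fold change of 1 and 95 of 100 with 2, and called 6 unchanged genes. All changed genes there were drawn from above the median level, so the shares do not cover low genes such as Bbc3. Fewer genes changed there than were called in these data, so those shares need not hold here. A gene that did not pass may still have changed. Ratios of single members were compared by exact permutation. In each pathway list up to 2 called genes per direction, those of largest fold change, are named, or the 2 most abundant where none was called, and any detected relative of the family. Single genes of the apoptosome and caspase list are not reported here. Members, lists and motifs were chosen with earlier results of these data known. Alternatives were another pseudocount, other filters, quantile normalization, removal of globin or mitochondrially encoded genes, no variance trend, a replicate block and leaving out each library. Promoter windows came from RefSeq (GRCm38.p6). DNase, PU.1 and ChIA-PET regions lie on mm9 with no gene names and were not analysed here.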

Additional observations from a re-analysis of the deposited data

How the results depend on the processing

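The 3 calls among the members (Bcl2l11, Bcl2l1 and Bid) held with a pseudocount of 0.1, a filter of 5 FPKM, quantile normalization, globin or mitochondrially encoded genes removed, and no variance trend. With no filter on low FPKM limma called 0 members (3 at an unadjusted p under 0.05) and 237 genes in all, against 1989. Without 1 library, which leaves a lone library assumed to vary like the other day, limma called 0 members (3 to 6 at an unadjusted p under 0.05) and 0 to 13 genes in all (2504 to 3440 unadjusted). The members kept their direction in the alternatives in which they were tested, which for Bbc3 leaves out the filter of 5 FPKM. The split of all calls was 1150 higher and 839 lower with the deposited scaling, and 814 higher and 895 lower after quantile normalization.

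Both days carry the replicate numbers 1 and 2, but deviations of same-numbered libraries correlated at only 0.05 over 10736 genes, so the numbers are not known to pair the libraries. With the replicate block 4 members were called, Bbc3 (limma adjusted p = 0.0457) being the addition, and 1797 genes in all. Of the 18 called list genes 12 were still called under the block, and Ripk1 (0.0554), Xiap (0.0624), Birc2 (0.0583), Lmnb1 (0.0526) and Atf4 (0.0544) were among those that were not.

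Some genes that did not pass turned direction: Bcl2l14 (-0.39 with a pseudocount of 0.1, and -0.75 to 1.31 when 1 library was left out), Bcl2l13 (-0.0094 after quantile normalization), and, when 1 library was left out, Bcl2l12 (-0.47 to 0.19) and Becn1 (-0.0786 to 0.62). The cause was not tested. The planned counts of members with a DNase site, PU.1 peak or polymerase II contact, and their alternatives, were not run, since no mm9 annotation was at hand. Unknown depth limits what can be said of low genes such as Bbc3.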

Other observations

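Of 26 tested genes upstream of the Bcl2 family, 5 rose and 2 fell on day 5, with a median log2 fold change of 0.04. Among all tested genes 10.7% rose and 7.81% fell, and the counts are given as descriptions, with no test. Pim1, which encodes a survival kinase induced by cytokines, had 166 and 151 FPKM on day 5 and 46.4 and 31.1 FPKM on day 0 (log2 fold change 2.03, limma adjusted p = 0.0121). Epor, the erythropoietin receptor gene, had 184 and 191 FPKM on day 5 and 75.4 and 58.1 FPKM on day 0 (1.49, 0.014). Myc fell to 81.3 and 71.8 FPKM on day 5, against 149 and 172 FPKM on day 0 (-1.06, 0.0222). Atf4, a stress response factor gene, fell to 267 and 265 FPKM on day 5, against 462 and 396 FPKM on day 0 (-0.68, 0.0466), and did not pass after quantile normalization (-0.38, 0.164), with a pseudocount of 0.1 (adjusted p = 0.0505) or with no variance trend (0.0859). These 4 lost their calls with any single library left out (limma adjusted p 0.0755 to 0.182) and with no filter on low FPKM (0.0723 to 0.0939).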
